A study of Homo sapiens with 6 samples.

Results

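The genes described here are 34 genes of the endoplasmic reticulum (ER): chaperones, disulfide enzymes, proteins of ER-associated degradation, and sensors of the unfolded protein response. They were taken by name from count tables of 33514 gene symbols. The naming rule uses no measured value, but the list was drawn up with earlier results of these data known. All 34 were found, and all 34 were among the 16209 genes that passed the filter on low counts. RNA was sequenced from PC3 cells, an established line from a bone metastasis of a human prostate cancer, after 2 h or 4 h with 50 µM heme in the culture medium and without treatment, with 2 libraries in each of the 3 groups. Heme is an iron-holding porphyrin that carries oxygen in hemoglobin, and the series concerns heme, the plasma protein hemopexin and MYC. No label states that replicates were separate cultures. The spread behind each p-value is therefore that between these libraries and may be technical.

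Proteins that enter the secretory pathway fold in the ER with the help of HSP70 and HSP90 chaperones, lectin chaperones that bind sugar chains, and enzymes that form disulfide bonds. When unfolded proteins accumulate, the sensors IRE1 (encoded by ERN1), ATF6 and PERK raise the transcription of these helpers and of the factors that send misfolded proteins to the proteasome, and PERK slows translation. The spliced form of XBP1 and the cleaved form of ATF6 bind ER stress elements in the promoters of such genes.

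After 2 h of heme, 11 of the 34 genes fell and 2 rose. The 11 were the chaperones HSPA5, HSP90B1 and CALR, the disulfide enzymes PDIA3, PDIA6 and ERO1A, the cochaperones DNAJB11, DNAJC3 and SDF2L1, and the secreted stress proteins CRELD2 and MANF. ERN1 and the cochaperone DNAJB9 were the 2 that rose, and the other 21 were not called. A gene was called where its p-value, adjusted by Benjamini and Hochberg's method over all 16209 genes, was under 0.05 in the quasi-likelihood test of edgeR. Levels are given as CPM, the count scaled by library size. Among all genes tested, 31.7% were called at 2 h, 15.8% lower and 15.9% higher. The 2 h libraries lay both below both untreated libraries in 23 of the 34 genes and both above them in 5, and 67.8% of all genes had no overlap in one or the other direction. The median change of the 34 genes was -0.17 on the log2 scale, beside 0.02 over all genes tested. None of the 34 changed by 1.5-fold or more at 2 h, a size that 3966 of all genes reached. In bulk RNA, fewer cells with a transcript and less of it per cell cannot be told apart. The counts depended on both untreated libraries: without untreated replicate 1, 5 genes were called lower and 1 higher, and without untreated replicate 2, 6 and 1. The share of all genes called was also lower in these fits, at 14.1% and 18%.

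After 4 h, none of the 34 genes was called against untreated cells by edgeR or by DESeq2, while 0.0308% of all genes (5 of 16209) were called by edgeR, 0.0247% higher and 0.00617% lower. The 4 h libraries lay above both untreated libraries in 14 of the 34 genes and below them in 1, where 34.4% of all genes had no overlap. At an unadjusted p under 0.05, 3 of the 34 genes were higher (SDF2L1, HYOU1 and HERPUD1) and 0 were lower, beside 3.6% of all genes in either direction. The median log2 change was 0.07, with 26 genes above 0 and 8 below. Over all genes tested the median was -0.003, with 7957 above 0 and 8252 below. Replicates of a group also differed in 1 direction: 27 of the 34 genes were higher in 4 h replicate 1 than in 4 h replicate 2. In untreated cells, 25 of the 34 were higher in replicate 1 than in replicate 2. Set directly against 2 h, 16 genes were higher at 4 h and 2 were lower, where 28.1% of all genes were called, 14% higher and 14.1% lower. The 4 h libraries lay above both 2 h libraries in 23 of the 34 genes and below them in 4, and 62.3% of all genes had no overlap. This comparison shares its 2 h libraries with the first. In shares of all gene counts, the 34 genes together took 1.14% and 1.11% in the 2 h libraries and 1.38% and 1.31% in the 4 h libraries, against 1.29% and 1.24% in the untreated libraries. The heat map of all 34 genes shows the 6 libraries side by side.

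**Figure D1:**
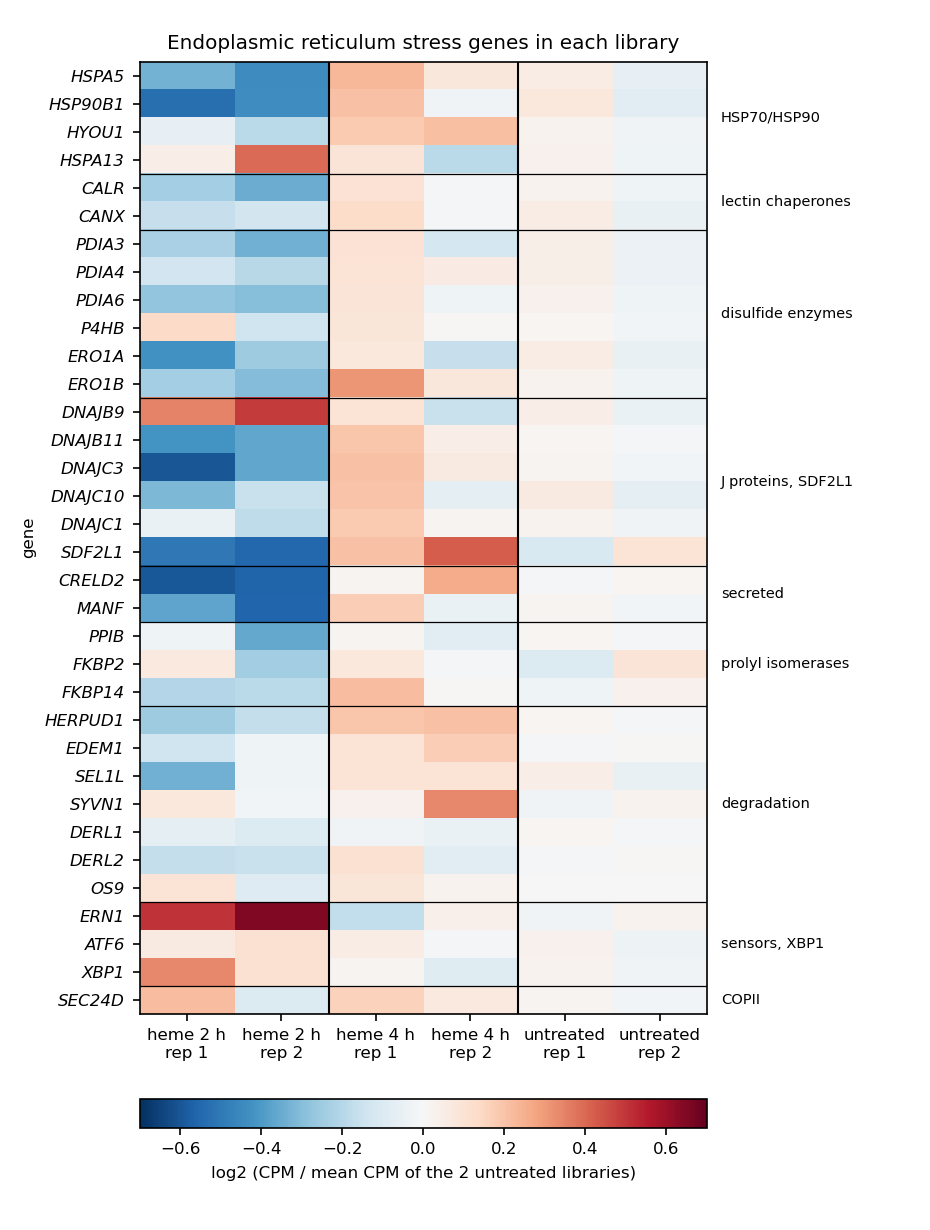
Level of each of the 34 genes (rows, grouped by role) in each library (columns), as the log2 ratio of its CPM to the mean CPM of the 2 untreated libraries (color). Most chaperone rows are blue in both 2 h libraries and near white or pale red at 4 h, whereas ERN1 and DNAJB9 are red in both 2 h libraries.

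Promoter windows were searched for letters that XBP1 and ATF6 are known to bind, on both strands. RefSeq windows on GRCh38.p14 reach from 250 bases before to 50 bases after an annotated start, and 29 of the 34 genes matched at least 1 (PDIA3, DNAJC1, FKBP14, DERL1 and SEC24D did not). The ER stress element ERSE, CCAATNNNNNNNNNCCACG, was found in the windows of 8 of the 29 genes (HSPA5, HSP90B1, CALR, CANX, PDIA6, ERO1B, CRELD2 and XBP1) and in 0.0769% of all 35116 windows. Its variant ERSE-II, ATTGGNCCACG, was found at HYOU1, SDF2L1 and HERPUD1, and in 0.0541% of all windows. The core of the unfolded protein response element, TGACGTGG, was found at HYOU1 and DNAJC10, and in 0.729% of all windows; it shares the letters CCACG, read on the other strand, with both ERSE motifs and overlaps an ERSE-II at HYOU1. Of the 12 genes with any match, 6 fell and 0 rose at 2 h (median log2 -0.28). Of the 17 genes with none, 4 fell and 2 rose (median log2 -0.08). Among all genes tested, 15.8% fell and 15.9% rose. Outside the 34 genes, 19 tested genes had an ERSE or ERSE-II match, and 5 of them fell and 3 rose. Whether a match bears on the fall was not tested. A match is a description of letters and not of a bound site, and no match says only that these letters are not in the window. The 34 genes were taken by name as ER and unfolded protein response genes, so more matches among them are no test. The units also differ: the 29 genes have 39 windows and are counted by gene, while the shares above are of windows.

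The bases before the start are printed for 7 genes: HSPA5, CRELD2 and SDF2L1, which fell at 2 h and hold a match; DNAJC3, which fell and holds none; HYOU1 and HERPUD1, which hold a match and were higher at 4 h than at 2 h; and XBP1, which holds a match and had higher values at 2 h. Capitals mark the letters of a motif. Bases inside any exon of GENCODE release 29 were left out, so some stretches are shorter than 250 bases.
HSPA5 (chr9:125241344-125241593, minus strand): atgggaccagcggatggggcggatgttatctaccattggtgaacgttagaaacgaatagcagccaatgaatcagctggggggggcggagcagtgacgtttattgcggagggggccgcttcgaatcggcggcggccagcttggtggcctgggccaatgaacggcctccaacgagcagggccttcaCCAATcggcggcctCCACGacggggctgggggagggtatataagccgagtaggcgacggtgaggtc
CRELD2 (chr22:49918459-49918633, plus strand): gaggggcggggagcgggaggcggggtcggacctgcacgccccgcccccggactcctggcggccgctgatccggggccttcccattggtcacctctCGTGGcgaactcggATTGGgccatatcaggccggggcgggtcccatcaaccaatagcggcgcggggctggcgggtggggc
SDF2L1 (chr22:21642052-21642260, plus strand): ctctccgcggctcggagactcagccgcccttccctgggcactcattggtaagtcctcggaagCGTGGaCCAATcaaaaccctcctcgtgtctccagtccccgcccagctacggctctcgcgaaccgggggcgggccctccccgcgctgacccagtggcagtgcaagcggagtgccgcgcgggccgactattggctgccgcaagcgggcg
HYOU1 (chr11:119057206-119057455, minus strand): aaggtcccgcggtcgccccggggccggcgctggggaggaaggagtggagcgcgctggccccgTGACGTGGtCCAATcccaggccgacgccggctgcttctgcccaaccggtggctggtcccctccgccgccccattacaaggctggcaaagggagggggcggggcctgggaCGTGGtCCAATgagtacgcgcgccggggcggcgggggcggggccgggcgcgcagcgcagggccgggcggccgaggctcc
HERPUD1 (chr16:56931892-56932047, plus strand): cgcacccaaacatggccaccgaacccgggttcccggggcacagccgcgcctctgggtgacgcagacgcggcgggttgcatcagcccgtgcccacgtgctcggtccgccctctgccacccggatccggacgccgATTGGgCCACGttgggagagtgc
XBP1 (chr22:28800598-28800682, minus strand): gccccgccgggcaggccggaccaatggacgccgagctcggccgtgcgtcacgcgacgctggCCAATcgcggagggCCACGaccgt
DNAJC3 (chr13:95676926-95677138, plus strand): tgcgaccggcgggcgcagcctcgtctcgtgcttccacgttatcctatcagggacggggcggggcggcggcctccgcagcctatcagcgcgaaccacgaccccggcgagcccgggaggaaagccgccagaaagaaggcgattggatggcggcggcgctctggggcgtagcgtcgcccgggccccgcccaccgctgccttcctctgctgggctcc

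The ERSE of HSPA5 lay from 66 to 48 bases before its start, that of CRELD2 from 80 to 62 and that of XBP1 from 52 to 34. The ERSE-II of SDF2L1 lay from 188 to 178 bases before its start and that of HERPUD1 from 117 to 107. HYOU1 held 2 ERSE-II, from 185 to 175 and from 79 to 69 bases before its start. HSP90B1 held 2 ERSE, while the 3 matches of CANX were 1 site seen from 3 annotated starts.

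**Figure D2:**
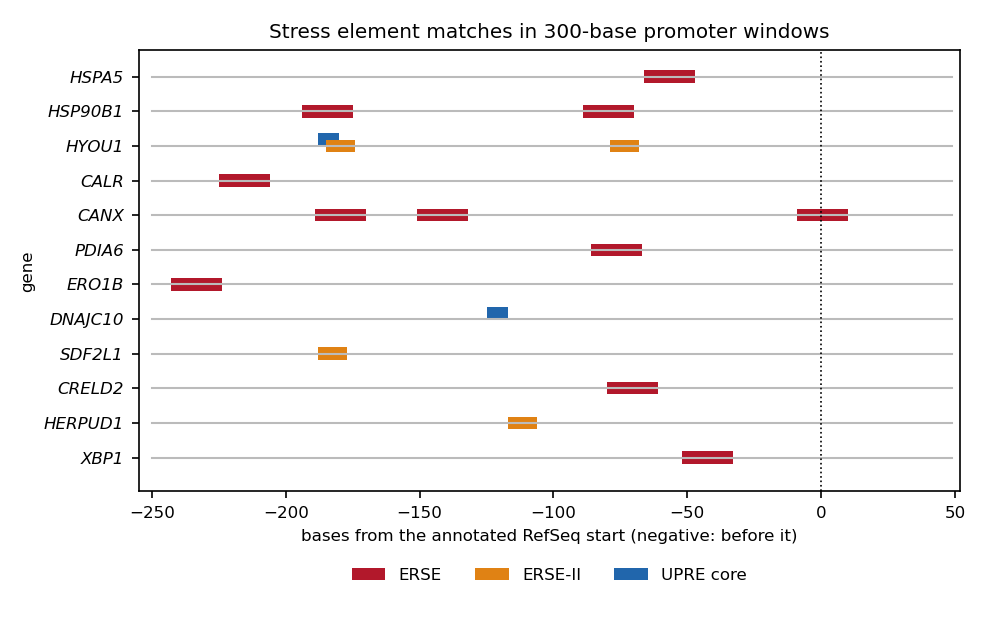
Position of each motif match (boxes, ERSE, ERSE-II and UPRE core) in the 300-base windows of the 12 genes with a match, in bases from the annotated start (horizontal axis). The boxes of HSPA5, PDIA6, CRELD2 and XBP1 lie within 90 bases of the start, and the 3 boxes of CANX are 1 site relative to 3 starts.

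HSPA5 (BiP), the HSP70 chaperone of the ER and the usual marker of its stress, fell at 2 h. It measured 1722 and 1598 CPM after 2 h and 2550 and 2291 CPM after 4 h, against 2249 and 2085 CPM in untreated cells. Both 2 h libraries were below both untreated libraries, and both 4 h libraries were above them. The change at 2 h was -0.38 on the log2 scale (SE 0.09, n = 2 per group, edgeR adjusted p = 0.00533), which is 1.31-fold lower. The call was lost without untreated replicate 1 (log2 -0.33, edgeR adjusted p = 0.0978). At 4 h the change was 0.16 (95% interval -0.03 to 0.35) and not called. The level at 4 h was 1.46-fold that at 2 h (log2 0.54, SE 0.09, edgeR adjusted p = 5.25e-04). HSPA5 (ENSG00000044574.7) lies on chromosome 9 from 125234853 to 125241330, on the minus strand of GRCh38.

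HSP90B1 (GRP94), the HSP90 of the ER, measured 1025 and 1090 CPM after 2 h and 1702 and 1450 CPM after 4 h, against 1553 and 1400 CPM in untreated cells. Its 2 h libraries were below both untreated libraries, and its 4 h libraries overlapped them. It fell by 0.48 on the log2 scale at 2 h (SE 0.10, edgeR adjusted p = 0.00215). HYOU1, which exchanges the nucleotide of HSPA5, measured 673 and 614 CPM after 2 h and 797 and 811 CPM after 4 h, against 714 and 688 CPM in untreated cells. It was not called at 2 h (log2 -0.12, 95% interval -0.31 to 0.06) and was higher at 4 h than at 2 h (log2 0.32, SE 0.09, edgeR adjusted p = 0.0142), a call lost without either 4 h replicate. HSPA13, an HSP70 relative of microsomes, had 86.7 and 110 CPM after 2 h, against 85.6 and 82.1 CPM in untreated cells, and was not called (log2 0.23, 95% interval -0.04 to 0.50).

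The lectin chaperones calreticulin and calnexin hold newly made glycoproteins until they fold. CALR, calreticulin, fell at 2 h: it measured 1399 and 1300 CPM after 2 h and 1770 and 1636 CPM after 4 h, against 1683 and 1620 CPM in untreated cells (log2 -0.29 at 2 h, SE 0.09, edgeR adjusted p = 0.0199). Its 2 h libraries lay below both untreated libraries and its 4 h libraries overlapped them. Calnexin, CANX, measured 840 and 859 CPM after 2 h, against 972 and 906 CPM in untreated cells, and was not called (log2 -0.14, 95% interval -0.34 to 0.05). The call of CALR at 2 h was lost without either untreated replicate and without 2 h replicate 2.

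Among 6 disulfide enzymes, 3 fell at 2 h and 0 rose, where 15.8% of all genes fell and 15.9% rose. PDIA3, the isomerase that works with the lectin chaperones, measured 624 and 578 CPM after 2 h and 784 and 669 CPM after 4 h, against 750 and 710 CPM in untreated cells (log2 -0.28 at 2 h, SE 0.10, edgeR adjusted p = 0.0395). PDIA6, which also binds the IRE1 sensor, measured 362 and 357 CPM after 2 h and 467 and 430 CPM after 4 h, against 448 and 429 CPM in untreated cells (log2 -0.29 at 2 h, SE 0.09, edgeR adjusted p = 0.0245). ERO1A, the oxidase that recharges these isomerases, measured 194 and 218 CPM after 2 h and 273 and 233 CPM after 4 h, against 269 and 251 CPM in untreated cells (log2 -0.34 at 2 h, SE 0.10, edgeR adjusted p = 0.0244). In all 3 genes both 2 h libraries lay below both untreated libraries, and the 4 h libraries overlapped them. With scaling to the total count alone, and without either untreated replicate, none of the 3 was called at 2 h. The call of PDIA3 was also lost without 2 h replicate 2, and that of ERO1A without 2 h replicate 1.

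P4HB, the founding protein disulfide isomerase, had 746 and 616 CPM after 2 h, one library above and one below the 687 and 671 CPM of untreated cells (log2 0.005, 95% interval -0.21 to 0.22). PDIA4 had 615 and 590 CPM after 2 h, against 694 and 656 CPM in untreated cells, and was not called (log2 -0.16, 95% interval -0.35 to 0.02). ERO1B, the second ERO1 oxidase, was the least abundant of the 34 genes, with 7.63 and 7.31 CPM after 2 h and 11.2 and 9.53 CPM after 4 h, against 9.18 and 8.84 CPM in untreated cells. It was not called at 2 h (log2 -0.27) and was higher at 4 h than at 2 h (log2 0.47, SE 0.15, edgeR adjusted p = 0.0306). That call was lost with scaling to the total count alone, with the compared groups only and without 4 h replicate 1.

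J-domain proteins hand clients to HSPA5 and make it hydrolyse ATP, and aid folding. DNAJC3 (p58IPK), which also inhibits PERK, measured 104 and 122 CPM after 2 h and 181 and 164 CPM after 4 h, against 160 and 155 CPM in untreated cells. It fell at 2 h (log2 -0.48, SE 0.10, edgeR adjusted p = 0.00336), with no overlap between the libraries, and its level at 4 h was 1.53-fold that at 2 h. DNAJB11 (ERdj3) measured 110 and 114 CPM after 2 h and 168 and 152 CPM after 4 h, against 149 and 146 CPM in untreated cells (log2 -0.39 at 2 h, SE 0.10, edgeR adjusted p = 0.00693). Both 2 h libraries were below the untreated libraries and both 4 h libraries above them. The call at 2 h was lost without untreated replicate 1.

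SDF2L1, a partner of DNAJB11 in a chaperone complex, measured 46.0 and 44.4 CPM after 2 h and 75.0 and 87.2 CPM after 4 h, against 60.5 and 69.7 CPM in untreated cells. The 3 groups did not overlap, with 2 h lowest and 4 h highest. SDF2L1 fell at 2 h (log2 -0.53, SE 0.11, edgeR adjusted p = 0.00324), was 0.32 higher at 4 h without being called (unadjusted p = 0.0135, edgeR adjusted p = 1), and at 4 h was 1.79-fold its 2 h level (log2 0.84, SE 0.11, edgeR adjusted p = 1.10e-04). That was the largest of the 34 differences between 4 h and 2 h. The call at 2 h was lost without untreated replicate 2 (edgeR adjusted p = 0.0573).

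DNAJB9 (ERdj4), a cochaperone that restrains IRE1 and aids degradation, went the other way. It measured 63.2 and 69.7 CPM after 2 h and 52.9 and 44.6 CPM after 4 h, against 51.3 and 48.0 CPM in untreated cells. It rose at 2 h (log2 0.42, SE 0.12, edgeR adjusted p = 0.0128), with both libraries above the untreated ones, and was lower at 4 h than at 2 h (log2 -0.45, SE 0.12, edgeR adjusted p = 0.0102). The call at 2 h was lost without either untreated replicate, and that at 4 h against 2 h without 4 h replicate 2. DNAJB9 (ENSG00000128590.4) lies on chromosome 7 from 108569568 to 108574850, and 6.45% of its exon bases overlap the genes PNPLA8 and THAP5. DNAJC10 (ERdj5), a disulfide reductase, and DNAJC1 were not called at 2 h (log2 -0.23 and -0.11), and DNAJC10 was higher at 4 h than at 2 h (log2 0.31, SE 0.11, edgeR adjusted p = 0.0426). The call of DNAJC10 was lost with scaling to the total count alone, with the compared groups only, and without 2 h replicate 1 or 4 h replicate 1.

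CRELD2, a stress protein that can leave the cell, had the largest fall of the 34 genes at 2 h. It measured 47.9 and 49.02 CPM after 2 h and 73.2 and 86.3 CPM after 4 h, against 71.5 and 72.8 CPM in untreated cells. Both 2 h libraries were below and both 4 h libraries above the untreated ones. The change at 2 h was -0.57 on the log2 scale (SE 0.11, edgeR adjusted p = 0.00126), which is 1.49-fold lower, and the level at 4 h was 1.65-fold that at 2 h (log2 0.72, SE 0.11, edgeR adjusted p = 2.52e-04). CRELD2 (ENSG00000184164.14) lies on chromosome 22 from 49918167 to 49927540. MANF, a secreted protein that binds HSPA5, measured 207 and 182 CPM after 2 h and 301 and 259 CPM after 4 h, against 271 and 263 CPM in untreated cells. It fell at 2 h (log2 -0.46, SE 0.10, edgeR adjusted p = 0.00406), without overlap, and its level at 4 h was 1.44-fold that at 2 h.

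None of the 3 prolyl isomerases, which turn peptide bonds before proline, was called at 2 h: PPIB, FKBP2 and FKBP14 had log2 changes of -0.18, -0.08 and -0.20. Of all genes tested, 31.7% were called at 2 h. PPIB differed between its 2 h libraries, with 224 and 178 CPM, against 230 and 226 CPM in untreated cells. FKBP14, which acts on collagens, measured 70.4 and 61.2 CPM at 4 h, against 52.7 and 53.4 CPM at 2 h (log2 0.31, SE 0.11, edgeR adjusted p = 0.0425). That call was lost with the replicate number as a block, with scaling to the total count alone, in a fit of the compared groups only, and without 2 h replicate 1 or 4 h replicate 1.

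The 7 genes of ER-associated degradation were not called at 2 h, with log2 changes between -0.21 and 0.03. Among all genes tested, 31.7% were called at 2 h. HERPUD1, a membrane scaffold of the degradation complex, measured 237 and 251 CPM after 2 h and 323 and 325 CPM after 4 h, against 284 and 279 CPM in untreated cells. Its 2 h libraries were below and its 4 h libraries above the untreated ones, but neither difference was called (log2 -0.21, edgeR adjusted p = 0.0888 at 2 h; log2 0.20, edgeR adjusted p = 1 at 4 h). Directly compared, HERPUD1 was higher at 4 h than at 2 h (log2 0.41, SE 0.09, edgeR adjusted p = 0.00351), as the only 1 of the 7. In that comparison 28.1% of all genes were called. The ubiquitin ligase SYVN1 (HRD1) had 157 and 148 CPM after 2 h and 153 and 189 CPM after 4 h, against 147 and 152 CPM in untreated cells. Its partner SEL1L had 157 and 195 CPM after 2 h, against 206 and 192 CPM in untreated cells. EDEM1, a lectin that marks misfolded glycoproteins, the channel proteins DERL1 and DERL2, and the lectin OS9 had log2 changes of -0.08, -0.08, -0.16 and 0.007 at 2 h.

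**Figure D3:**
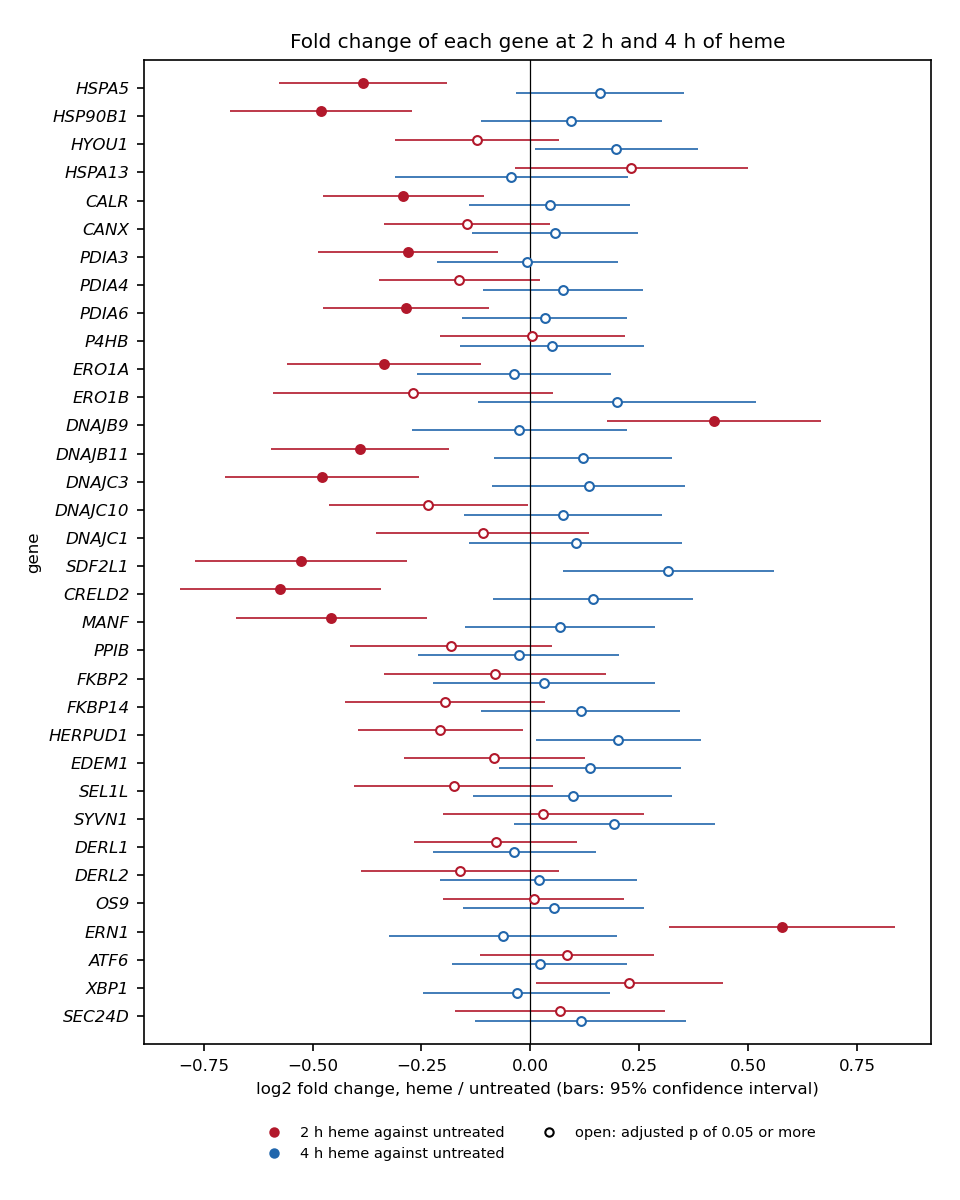
Fitted log2 fold change of each of the 34 genes (points, with 95% confidence intervals) at 2 h and at 4 h of heme, each against untreated cells; filled points had an adjusted p under 0.05. At 2 h, 11 filled points lie left of 0 and 2 right of it, and at 4 h no point is filled.

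Among the sensors, ERN1 rose while ATF6 and XBP1 were not called. ERN1 encodes IRE1, the kinase and ribonuclease that splices XBP1 messenger RNA. It measured 36.5 and 40.3 CPM after 2 h and 22.8 and 26.4 CPM after 4 h, against 25.3 and 26.1 CPM in untreated cells. Both 2 h libraries were above the untreated ones, and the 4 h libraries overlapped them. The rise was 1.49-fold (log2 0.58, SE 0.12, edgeR adjusted p = 0.00275), and the level at 4 h was lower than at 2 h (log2 -0.64, SE 0.12, edgeR adjusted p = 0.00144). ERN1 (ENSG00000178607.15) lies on chromosome 17 from 64039142 to 64130819, on the minus strand.

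ATF6, a membrane-bound transcription factor released by cleavage, measured 120 and 123 CPM after 2 h and 119 and 114 CPM after 4 h, against 117 and 112 CPM in untreated cells (log2 0.08 at 2 h, 95% interval -0.12 to 0.28). The 2 h libraries were just above both untreated libraries. XBP1, the transcription factor that IRE1 activates, measured 230 and 196 CPM after 2 h and 184 and 172 CPM after 4 h, against 185 and 179 CPM in untreated cells. Its 2 h libraries were above both untreated libraries, but the change was not called (log2 0.23, 95% interval 0.01 to 0.44, edgeR adjusted p = 0.0974); it was called with scaling to the total count alone (edgeR adjusted p = 0.0319) and without 2 h replicate 2 (log2 0.34, edgeR adjusted p = 0.0125). Without 2 h replicate 1 the log2 change was 0.11 (edgeR adjusted p = 0.479), and without untreated replicate 2 it was 0.19 (edgeR adjusted p = 0.42). SEC24D, a cargo adaptor of the COPII coat and known XBP1 target, had 84.0 and 67.6 CPM after 2 h, against 73.3 and 71.2 CPM in untreated cells, and was not called (log2 0.07).

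The activity of IRE1 lies in the splicing of XBP1 messenger RNA, which counts per gene do not show. IRE1 removes 26 bases, and both cut sites have the loop letters CNGCAG with the cut after the third letter. One pair of such loops at that spacing was found in XBP1 transcripts, inside the coding part of exon 4 of XBP1-201 at chr22:28796127-28796152 on the minus strand. The removed bases are in capitals in the stretch below, taken from the GENCODE transcript (chr22:28796105-28796174).
XBP1: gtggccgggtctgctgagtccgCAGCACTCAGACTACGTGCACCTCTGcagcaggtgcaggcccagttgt
Reads with and without these bases count alike in the deposited tables, so the values of XBP1 above are for both forms together.

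Levels between genes were compared per kilobase of exon, using all exon bases of GENCODE release 29. CALR and HSPA5 were the most abundant of the 34 genes in both 2 h and untreated cells, with 497 and 425 CPM per kilobase at 2 h, against 609 and 555 in untreated cells. HSP90B1 followed, with 225 CPM per kilobase at 2 h, against 314 in untreated cells, and then PDIA4, with 184 against 206. At the low end, ERN1 had 3.53 CPM per kilobase at 2 h, against 2.37 in untreated cells, and ERO1B had 1.39, against 1.68. XBP1 and ATF6 had 70.3 and 15.4 CPM per kilobase at 2 h, against 60.1 and 14.5 in untreated cells. The order of the first 8 genes was the same at 2 h as in untreated cells. Reads of overlapping genes are uncertain because the strand setting is not given in the sources used here: 18 of the 34 genes share exon bases with another gene, and PPIB, PDIA6 and DNAJB11 share 27.2%, 25.2% and 23.2% of theirs.

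**Figure D4:**
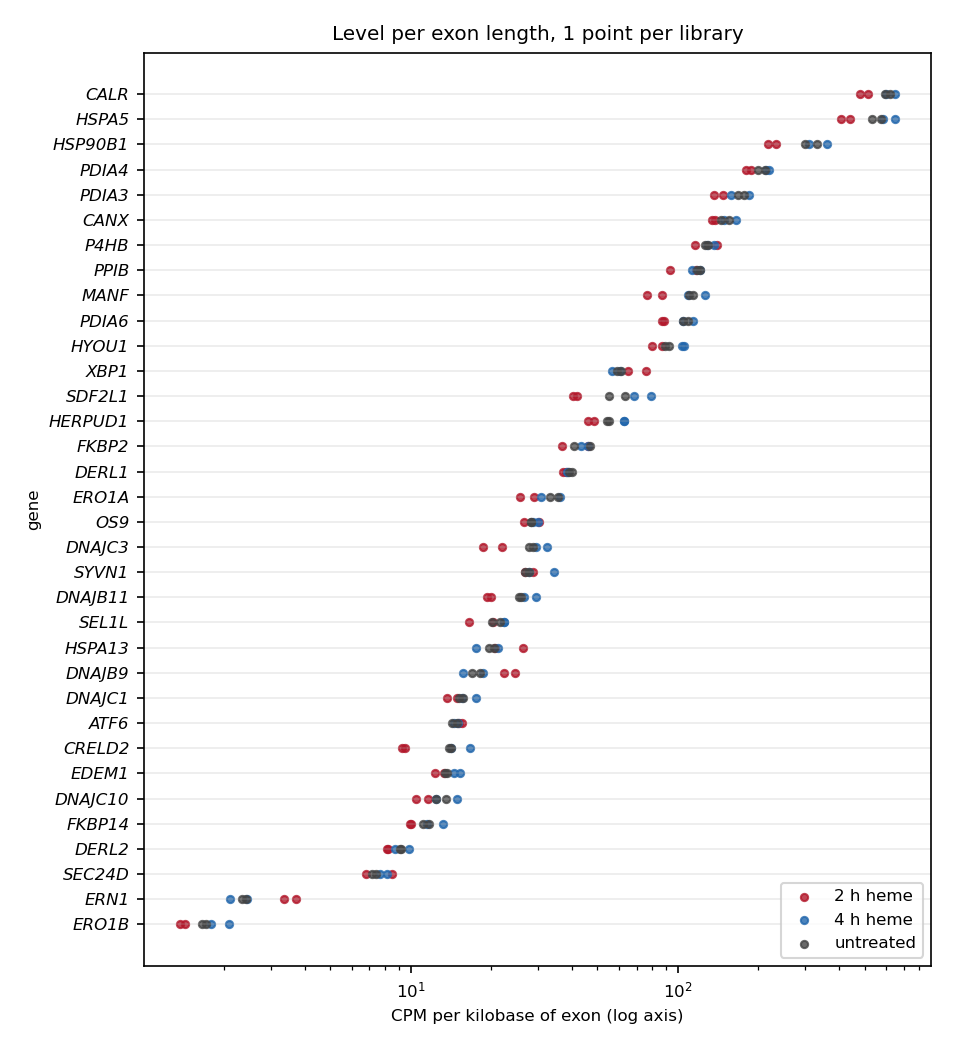
Level of each of the 34 genes in CPM per kilobase of exon (log axis), 1 point per library, with the genes in the order of their mean in untreated cells. Values run from below 2 for ERO1B to over 600 for CALR in untreated cells, and the red 2 h points lie left of the others for HSPA5, HSP90B1, SDF2L1 and CRELD2 and right of them for ERN1 and DNAJB9.

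The other genes of the pathway were taken from 6 lists, 118 genes of which 117 were tested. At 2 h 14 rose, 18 fell and 85 were not called, beside the 15.9% and 15.8% of all genes. At 4 h 0 of the 117 were called against untreated cells by edgeR and 0 by DESeq2, and at an unadjusted p under 0.05 3 were higher and 1 lower, beside the 3.6% of all genes. The list with most rises was named for the PERK-ATF4 arm, in which PERK slows translation and the transcription factor ATF4 is made. In this list 6 of 10 genes rose and 1 fell (median log2 0.58). TRIB3, a pseudokinase induced by ATF4, measured 302 and 230 CPM after 2 h and 98.4 and 102 CPM after 4 h, against 77.6 and 80.5 CPM in untreated cells (log2 1.75 at 2 h, SE 0.12, edgeR adjusted p = 4.00e-07). ATF3, a stress transcription factor, measured 53.4 and 43.1 CPM after 2 h, against 15.1 and 15.6 CPM in untreated cells (log2 1.65, SE 0.14, edgeR adjusted p = 2.22e-06). CEBPB, a partner of ATF4, measured 238 and 192 CPM after 2 h, against 71.7 and 80.3 CPM in untreated cells (log2 1.5, SE 0.16, edgeR adjusted p = 2.17e-05). DDIT3 (CHOP), the pro-apoptotic factor of this arm, fell instead, with 10.0 and 10.9 CPM after 2 h, against 20.2 and 20.96 CPM in untreated cells (log2 -0.98). ATF4 itself (log2 0.07) and EIF2AK3, which encodes PERK (log2 0.02), were not called. RNA counts do not measure the activity of PERK, and its part in these changes was not tested.

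At 2 h, where 15.9% of all genes rose and 15.8% fell, 4 of 9 other sensors and ER membrane transcription factors rose and 0 fell. They were the CREB3 relatives CREB3L4 (20.3 ± 1.30 CPM at 2 h and 12.5 ± 0.30 CPM in untreated cells, SD, n = 2 each; log2 0.70) and CREB3L1, the ATF6 paralog ATF6B (log2 0.33) and NFE2L1, which controls proteasome genes (log2 0.33). CREB3L1 was scarce, with 1.34 and 0.608 CPM after 2 h, against 0.289 and 0.241 CPM in untreated cells. Among all genes 31.7% were called, and among 24 translocon and glycosylation genes 29.2%. Of these 24, which bring proteins into the ER and add sugar chains, 7 fell and 0 rose (median log2 -0.16). The smallest p-values were those of SRPRB, a subunit of the signal recognition particle receptor (log2 -0.50, SE 0.10), SEC62 of the translocon (log2 -0.51, SE 0.11) and SEC11C of the signal peptidase (log2 -0.53, SE 0.12).

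At 2 h 31.7% of all genes were called, beside 17.6% of 34 other folding factors. Of these 34, 4 fell and 2 rose (median log2 -0.09). The membrane disulfide enzyme TMX1 (log2 -0.50), the ER peroxiredoxin PRDX4 (log2 -0.34), MESD (log2 -0.32) and ERP44 (log2 -0.30) fell, and FKBP9 (log2 0.30) and CDNF, the paralog of MANF, rose. CDNF was scarce, with 0.582 and 0.278 CPM after 2 h, against 0.154 and 0.0926 CPM in untreated cells. Of 23 tested degradation factors 3 fell and 1 rose, or 17.4% (median log2 0.02). VCP, the ATPase that pulls proteins out of the ER membrane (log2 -0.37), its adaptor UFD1 (log2 -0.32) and its membrane anchor SELENOS (log2 -0.43) fell, and the ligase RNF5 (log2 0.36) rose. Of 17 other genes of the COPII coat and of retrieval, 3 fell and 1 rose, or 23.5% (median log2 -0.05). SEC24B (log2 -0.67), SAR1A (log2 -0.45) and SAR1B (log2 -0.35) fell and SEC24C (log2 0.29) rose.

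**Figure D5:**
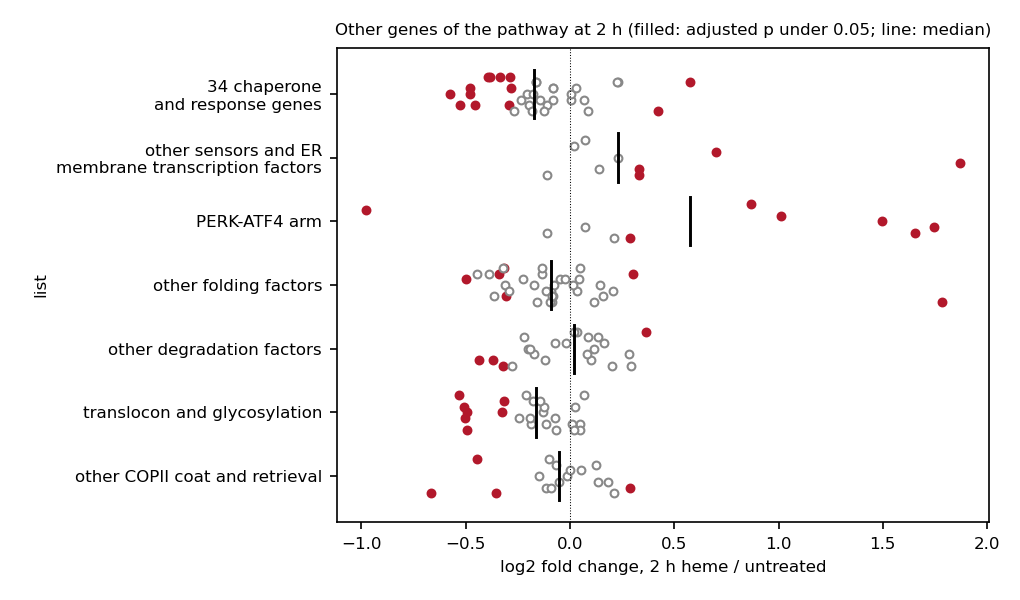
Log2 fold change at 2 h of heme against untreated cells (horizontal axis) for the 34 genes and the 6 lists of other pathway genes (rows), 1 point per gene, filled where the adjusted p was under 0.05, with the list median as a line. The median of the PERK-ATF4 arm lies at 0.58 and that of the 34 genes at -0.17.

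Depth was similar in all libraries, between 53129375 and 55537611 gene counts. A first principal component with 58% of the variance set the 2 h libraries, at 55.6 and 39.1, apart from the other 4, between -27 and -19.2. HMOX1, the heme-degrading enzyme that responds to heme, measured 451 and 328 CPM after 2 h and 382 and 341 CPM after 4 h, against 10.4 and 11.4 CPM in untreated cells. The epithelial genes EPCAM, KRT8 and KRT18 were present in every library (at least 277 CPM), and so were CDH1 and, at 13.1 to 18.9 CPM, VIM. At 2 h EPCAM fell (log2 -0.29, edgeR adjusted p = 0.0313) and CDH1 rose (log2 0.28, edgeR adjusted p = 0.0282), and the other 3 of this list were not called. The luminal prostate markers KLK3 and FOLH1 had 0 counts in all 6 (by counting error alone, a level of at most 0.0565 CPM in the least deep library). Of 6 blood cell markers, CD14 rose at 2 h, HBB and HBA1 had 0 counts in all libraries, and the list summed to between 2.00 and 2.70 CPM after 2 h and between 0.813 and 1.07 CPM after 4 h, against 0.521 to 0.852 CPM in untreated cells. Of 4 fibroblast markers, COL1A1 rose at 2 h, COL1A2, DCN and LUM had at most 0.0771 CPM, and the list summed to between 41.5 and 48.4 CPM after 2 h and between 25.3 and 32.4 CPM after 4 h, against 26.3 to 29.1 CPM in untreated cells. Their part in the changes of the ER genes was not tested.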

How the data were processed

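The authors deposited raw counts of reads for each gene symbol, in 1 table per library with 5 summary lines, which stayed out of library sizes and tests. The submitters' processing notes name hg38 and the tools STAR, Trimmomatic, deepTools and SAMtools. Their versions, the annotation and the strand setting were not given in the sources used here. Reads outside genes were 5.48% to 6.88% of a library, ambiguous reads 4.23% to 4.48%, and the multiple-alignment line was 0. The replicates of every group differed beyond sampling noise, with a chi-square of 8.78 to 33.9 per gene.

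Counts of 16209 genes past filterByExpr (minimum count 10) were tested with edgeR 4.0.16 in R 4.3.3: TMM scaling, quasi-likelihood test, 1 fit of the 6 libraries with 3 residual degrees of freedom, two-sided, Benjamini-Hochberg adjusted p under 0.05. Standard errors were derived from the F statistic. The test was checked on simulated counts whose set changes were 1.5-fold or more. Smaller changes, such as those of the 34 genes at 2 h, were not covered by that check. Members and lists were chosen with earlier results of these data known. Full values are given for genes called against untreated cells and for HSPA5, XBP1, ERN1 and ATF6; of each further list, the 3 smallest p-values at 2 h are named. Other genes were named with their values in view. The alternatives tried were DESeq2 1.42.0, its size factors, the total count alone, no filter, a replicate block, only the compared groups, glmTreat at 1.5-fold and leaving out each library. Promoter windows came from RefSeq (GRCh38.p14), coordinates, exon lengths and the XBP1 transcript from GENCODE release 29 (GRCh38).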

Additional observations from a re-analysis of the deposited data

Results flagged for a closer look

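For 18 of the 34 genes, the effect of heme against untreated cells at 4 h differed from that at 2 h. Both effects use the same untreated libraries, so their difference is the direct comparison of 4 h with 2 h, tested by edgeR's quasi-likelihood test at an adjusted p under 0.05, with 28.1% of all genes called. The log2 difference, 4 h minus 2 h, was above 0 for 16 genes: SDF2L1 (0.84), CRELD2 (0.72), DNAJC3 (0.61), HSP90B1 (0.58), HSPA5 (0.54), MANF (0.53), DNAJB11 (0.51), ERO1B (0.47), HERPUD1 (0.41), CALR (0.34), HYOU1 (0.32), PDIA6 (0.32), FKBP14 (0.31), DNAJC10 (0.31), ERO1A (0.30) and PDIA3 (0.27). It was below 0 for ERN1 (-0.64) and DNAJB9 (-0.45). In all 18 genes both 4 h libraries lay on the same side of both 2 h libraries. With scaling to the total count alone, PDIA3, ERO1A, ERO1B, DNAJC10 and FKBP14 were not called, nor were they in a fit of the compared groups only. Over all alternatives, the log2 difference ran from 0.155 to 0.384 for PDIA3 and from 0.269 to 0.391 for CALR. It ran from 0.253 to 0.378 for PDIA6 and from -0.575 to -0.328 for DNAJB9. The calls of PDIA3, CALR and PDIA6 were lost without 4 h replicate 1, and that of DNAJB9 without 4 h replicate 2. PDIA3 also lost its call without 2 h replicate 2. CRELD2, DNAJB11, DNAJC3, ERN1, HERPUD1, HSP90B1, HSPA5, MANF and SDF2L1 kept theirs under every alternative, other than glmTreat, that touches this comparison.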

How the results depend on the processing

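At 2 h against untreated cells, 11 genes were called lower and 2 higher. Leaving out 1 library gave 5 to 11 lower and 1 to 3 higher, with the low counts without untreated replicate 1 (5 and 1) and replicate 2 (6 and 1). CRELD2, DNAJC3, ERN1, HSP90B1 and MANF kept their calls at 2 h under the 10 alternatives, other than glmTreat, that touch this comparison. At 4 h against 2 h, where 16 were higher and 2 lower, leaving out 1 library gave 8 to 16 higher and 1 to 3 lower, with 8 higher without 4 h replicate 1 and 1 lower without 4 h replicate 2, where 13.5% and 20.5% of all genes were called, beside 28.1% with all libraries. Tested against a change of 1.5-fold with glmTreat, 0 genes were called lower and 0 higher in either comparison, while 533 of all genes were called at 2 h. At 4 h against untreated cells the counts stayed at 0 under every alternative run. With the total count alone as scale, 8 were lower and 3 higher at 2 h.

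Replicate numbers pair the libraries only by name: the correlation of their deviations was -0.0908 between 2 h and untreated, 0.065 between 4 h and untreated and -0.0162 between 4 h and 2 h. With the replicate block, 11 were lower and 2 higher at 2 h, 0 were called at 4 h, and 14 were higher and 2 lower at 4 h against 2 h, with ERO1A and FKBP14 no longer called.

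Of the values at 4 h against untreated cells, none called, some changed sign when 1 library was left out: ERN1 ran between -0.1702 and 0.03728 on the log2 scale, XBP1 between -0.08184 and 0.01688, and ATF6 between -0.008262 and 0.0538. The cause was not tested.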

Other observations

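Apart from the 34 genes, ERSE or ERSE-II letters were found in the windows of 33 genes, of which 19 were tested; 5 fell and 3 rose at 2 h (median log2 -0.10). FICD, the enzyme that adds and removes AMP on HSPA5, rose at 2 h (log2 0.55, edgeR adjusted p = 0.00447), with 28.98 CPM on average, against 19.8 CPM in untreated cells. Its level at 4 h was lower than at 2 h (log2 -0.51). SERP1, which stabilises membrane proteins of the ER, had a log2 change of -0.16 and NUCB1, a calcium-binding protein described as a brake on ATF6, one of 0.16, neither of them called. NAV2, ZNF17, ZNF143 and SHCBP1, which are not known as ER chaperones, also hold these letters and changed at 2 h (log2 2.35, -0.65, -0.54 and -0.74). These genes were named after their values were seen.

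The median absolute log2 ratio between the 2 libraries of a group, over the 34 genes, was 0.111 at 2 h and 0.145 at 4 h, against 0.0534 in untreated cells. Over all genes tested it was 0.199 at 2 h and 0.162 at 4 h, against 0.116 in untreated cells. HSPA13 differed most between the 2 h libraries (0.346) and SYVN1 between the 4 h libraries (0.308).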
